A study of Mus musculus with 6 samples.

Results

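MiRNAs of the miR-15 and miR-16 seed family (with miR-195, miR-497 and miR-322) and miR-351, a genomic neighbour of miR-322, were examined in 6 small RNA libraries of mouse fat, 3 from interscapular brown fat (BF-EPA, numbered 3, 4 and 5) and 3 from inguinal subcutaneous fat (SUB-EPA, numbered 1, 3 and 8). Members were taken by name: 8 mature miRNA arms were listed and all 8 were found among the 1251 arms of the deposited table. The mice were C57BL/6J, an inbred laboratory strain, 5 to 6 weeks old when feeding began. For 11 weeks both groups ate a high fat diet (fat gave 45% of the energy, protein 20%, carbohydrate 35%) to which eicosapentaenoic acid (EPA), a polyunsaturated fatty acid of fish oil, was added at 6.75%, in a unit that the labels do not give, and food was withheld for 4 hours before tissue was taken. The study was set up around the effect of EPA. As both groups received it, the comparison made here is between brown and subcutaneous fat within EPA-fed mice, with n = 3 libraries in each.

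MiRNAs are short RNAs that guide Argonaute proteins to messenger RNAs and lower their output, and the bases 2 to 8 from their 5′ end, the seed, do most of the target recognition. Arms with the same seed therefore share many predicted targets. The miR-15/16 family is best known for repressing cell cycle genes such as cyclins and the survival gene Bcl2, and it has been linked to exit from the cell cycle in differentiating cells, including heart and skeletal muscle. A hairpin precursor yields a 5p and a 3p arm, and hairpins that lie close together on one strand are often cut from a single primary transcript.

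The sequences are shown because the seed, and not the locus, defines the family. They are RefSeq mature sequences on GRCm38, written 5′ to 3′ with the seed in capitals. MiR-497-5p was matched through its hairpin symbol (RefSeq calls the arm miR-497a-5p) and the other 7 by name.
miR-15a-5p: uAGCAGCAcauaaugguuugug
miR-15b-5p: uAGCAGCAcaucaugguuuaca
miR-16-5p: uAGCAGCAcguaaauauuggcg
miR-195a-5p: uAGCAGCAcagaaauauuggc
miR-497-5p: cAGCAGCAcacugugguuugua
miR-322-5p: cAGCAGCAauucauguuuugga
miR-322-3p: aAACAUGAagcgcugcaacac
miR-351-5p: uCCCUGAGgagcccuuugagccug
The first 6 arms share the seed AGCAGCA, whose complement in a target is UGCUGCU. Outside the seed they differ: miR-16-5p and miR-195a-5p are identical at 19 of 21 positions counted from the 5′ end, miR-15a-5p and miR-15b-5p at 18 of 22, and miR-195a-5p and miR-322-5p at 11 of 21. MiR-351-5p does not carry this seed. Its seed, CCCUGAG, is that of miR-125a-5p and miR-125b-5p, abundant miRNAs encoded elsewhere in the genome.
miR-125a-5p: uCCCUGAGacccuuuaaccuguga
miR-125b-5p: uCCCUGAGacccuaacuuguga

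The family comes from 4 places in the genome (GRCm38, GENCODE M21). Mir15a and Mir16-1 lie 54 bases apart on chromosome 14 (61632027 to 61632110 and 61631880 to 61631972, minus strand) within the noncoding gene Dleu2, Mir15a in an intron and Mir16-1 over an annotated exon of 1 or more transcripts. Mir15b and Mir16-2 lie 66 bases apart on chromosome 3 (69009772 to 69009835 and 69009902 to 69009996, plus strand) in an intron of Smc4, which encodes a condensin subunit needed for chromosome condensation. Both Mir16 hairpins give the same miR-16-5p sequence, so the 2 loci cannot be told apart in its value. Mir497 and Mir195a lie 241 bases apart on chromosome 11 (70234717 to 70234800 and 70235042 to 70235135, plus strand), and Mir322 and Mir351 lie 901 bases apart on chromosome X (53054255 to 53054349 and 53053255 to 53053353, minus strand) with Mir503 between them. No annotated gene other than miRNAs contains these last 4 hairpins. Mir322 is shown whole, with its 5p and then its 3p arm in capitals, because both of its arms are members.
Mir322: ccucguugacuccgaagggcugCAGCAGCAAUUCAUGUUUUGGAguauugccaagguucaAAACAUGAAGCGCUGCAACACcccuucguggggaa

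The values are normalized log2 abundances from the authors' table, in which the lowest possible value, the floor, was 3.32 and the highest value was 18.67. The libraries hold nearly the same set of values in a different order, so the read depth of a library cannot be read from them and a value is close to a rank within its library. Of the miRNAs listed for brown fat, 4 of 4 (miR-378a-3p, miR-193b-3p, miR-455-3p and miR-365-3p) were called higher there, against 33.5% of all tested miRNAs (limma, adjusted p under 0.05). The marker lists were chosen with earlier results of these data known, so this count does not test tissue identity. Of the miRNAs of inguinal white fat, miR-10b-5p was higher in subcutaneous fat. MiR-196a-5p and miR-335-5p were above the floor in the subcutaneous libraries alone, through which they entered the test, so their direction was set by their inclusion. A pair of libraries stood apart in the skeletal muscle miRNA miR-133a-3p, which was at 17.20 in BF-EPA 4 and 16.90 in SUB-EPA 3 and between 10.32 and 13.32 in the other 4 libraries, while miR-1a-3p, another muscle miRNA, was listed at the floor in all 6. SUB-EPA 1 stood apart in the epithelial miRNA miR-205-5p, at 15.02 against 7.35 and 5.74 in the other subcutaneous libraries. In whole tissue, fewer cells of a type and less of a miRNA per cell cannot be told apart.

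All 6 arms with the AGCAGCA seed had lower deposited values in brown than in subcutaneous fat, with no overlap, and 5 of the 6 passed the test, but the direction of miR-15a-5p and miR-15b-5p turned when a trend on GC content was removed. MiR-351-5p was the only member with higher deposited values in brown fat, and it turned to lower with that trend removed. Of the 8 members, 6 were called, where 69.1% of the 269 tested miRNAs were (limma, adjusted p under 0.05). There were 5 called lower in brown fat (35.7% of all tested) and 1 called higher (33.5% of all tested). For all 8 members no brown value fell within the range of the subcutaneous ones, which was so for 74% of all tested miRNAs. The median difference, brown minus subcutaneous on the log2 scale, was -1.34 over the 8 members and -1.79 over the 6 arms of the shared seed, against -0.45 over all tested miRNAs. That last value became -0.04 when the libraries were rescaled by median of ratios, so differences are also given below relative to it.

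**Figure D1:**
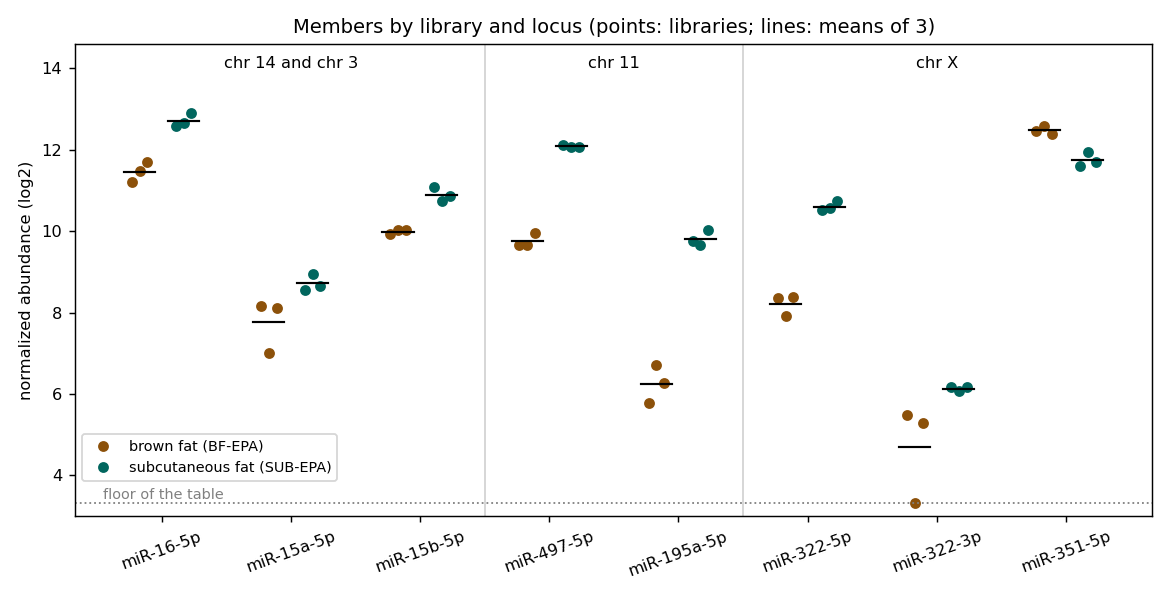
Normalized abundance (log2, vertical axis) of the 8 members in each of the 6 libraries, grouped by chromosome; points are libraries, short lines the mean of 3 libraries, and the dotted line is the floor of 3.32. The tissues do not overlap for any member, and only miR-351-5p is higher in brown fat; with the GC trend removed, miR-351-5p, miR-15a-5p and miR-15b-5p change direction.

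Of the 8 members, miR-195a-5p of the chromosome 11 pair had the largest difference in the deposited values. This arm, known for its part in the cell cycle exit of heart muscle cells after birth, stood at 5.77, 6.71 and 6.28 in BF-EPA 3, 4 and 5 and at 9.76, 9.65 and 10.02 in SUB-EPA 1, 3 and 8. Its lowest subcutaneous value lay 2.94 above its highest brown value. It was 11.8-fold higher in subcutaneous fat (-3.56 ± 0.31 SE on the log2 scale, limma adjusted p = 0.000123), and its difference was lower than that of all but 5.95% of tested miRNAs. With the GC trend removed the difference was -2.43.

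MiR-497-5p, its cluster partner, was more abundant and changed less. In brown fat it held 9.65 in BF-EPA 3 and in BF-EPA 4 and 9.95 in BF-EPA 5, and in subcutaneous fat 12.12, 12.07 and 12.07 in SUB-EPA 1, 3 and 8. The tissues were 2.12 apart at their nearest values. MiR-497-5p was 5.04-fold higher in subcutaneous fat (-2.33 ± 0.16 SE, limma adjusted p = 4.94e-05). By rank it stood between 92 and 98 in the brown libraries and at 51 or 52 in the subcutaneous ones.

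Whether the 2 arms shifted by the same amount was asked from their ratio within each library. The log2 ratio of miR-195a-5p to miR-497-5p was -3.88, -2.94 and -3.68 in the brown libraries and -2.36, -2.42 and -2.05 in the subcutaneous ones. MiR-195a-5p was thus the scarcer arm in every library, and its share against miR-497-5p was 2.34-fold lower in brown fat (difference -1.22 ± 0.31 SE; exact permutation p = 0.1, which is the smallest that 3 against 3 libraries can give, and 0.175 adjusted over the 7 pairs compared). The groups did not overlap, and this exact test cannot go below 0.05 with 3 libraries in each tissue. With the GC trend removed the difference was -0.29.

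Of the chromosome X cluster, miR-322-5p, the mouse counterpart of human miR-424 and a promoter of muscle differentiation, stood at 8.36, 7.91 and 8.39 in BF-EPA 3, 4 and 5. In SUB-EPA 1, 3 and 8 it stood at 10.53, 10.56 and 10.74. Every subcutaneous value was at least 2.14 above every brown one. The arm was 5.23-fold higher in subcutaneous fat (-2.39 ± 0.21 SE, limma adjusted p = 0.000128). With the GC trend removed the difference was -1.01, still past the threshold.

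MiR-322-3p, cut from the other side of the same hairpin and free of the family seed, was near the floor. It stood at 5.49, at the floor and at 5.30 in BF-EPA 3, 4 and 5, and at 6.16, 6.08 and 6.16 in SUB-EPA 1, 3 and 8. The tissues did not overlap, but the difference of -1.43 ± 0.65 SE did not pass the test (limma adjusted p = 0.091), and it was -0.74 without BF-EPA 4. MiR-322-3p entered the test only through its subcutaneous values, so a difference in that direction was built into its inclusion. The 5p arm exceeded the 3p arm in all 6 libraries, by 11.5-fold in brown and 22.2-fold in subcutaneous fat (geometric means), and the 2 ratios overlapped between tissues (exact permutation p = 0.4), the direction of their shift turning when the floor was subtracted before the logarithm (0.15).

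MiR-351-5p, from the hairpin 901 bases away, went the other way in the deposited values, though not with the GC trend removed (-0.69). It stood at 12.45, 12.59 and 12.40 in BF-EPA 3, 4 and 5 and at 11.60, 11.94 and 11.70 in SUB-EPA 1, 3 and 8. The brown libraries were all higher, with a gap of 0.46 between the nearest values. It was 1.66-fold higher in brown fat (0.73 ± 0.15 SE, limma adjusted p = 0.0051), or 1.19 above the median of all tested miRNAs on the log2 scale.

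The balance between these neighbouring hairpins of chromosome X was compared next, on the deposited values. The log2 ratio of miR-322-5p to miR-351-5p was -4.09, -4.68 and -4.01 in brown fat and -1.07, -1.38 and -0.96 in subcutaneous fat. MiR-351-5p was the more abundant of the pair in all 6 libraries, and its excess over miR-322-5p was 8.71-fold larger in brown fat (difference -3.12 ± 0.24 SE; exact permutation p = 0.1, the smallest possible, and 0.175 adjusted over the 7 pairs). This was the largest shift among the 7 pairs. It also moved most when the GC trend was removed, its arms lying furthest apart in GC content, as given further on.

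The arms with the seed of miR-351-5p were set beside it. MiR-125a-5p stood at 17.20, 16.90 and 17.20 in BF-EPA 3, 4 and 5 and at 16.18, 16.38 and 16.02 in SUB-EPA 1, 3 and 8 (0.91 ± 0.14 SE, limma adjusted p = 0.0018). MiR-125b-5p stood at 14.52, 14.75 and 14.41 in brown and at 14.24, 14.02 and 14.05 in subcutaneous fat (0.45 ± 0.14 SE, limma adjusted p = 0.026). Both were higher in brown fat with no overlap, as was miR-351-5p in the deposited values. Summed on the linear scale over these 3 arms, miR-351-5p made up 3.37% ± 0.50 (SD, n = 3) of the seed's total in brown fat and 3.59% ± 0.33 in subcutaneous fat, so most of the CCCUGAG total lay in miR-125a-5p and miR-125b-5p in both tissues. Of the 2 other arms of the table with this seed, miR-6367 and miR-6394, both were listed at the floor in all libraries.

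The chromosome 14 and 3 arms had smaller differences than the other arms of the family seed. MiR-16-5p, the most abundant of the 6 arms with the family seed in both tissues, stood at 11.21, 11.48 and 11.70 in BF-EPA 3, 4 and 5 and at 12.59, 12.65 and 12.89 in SUB-EPA 1, 3 and 8. Each subcutaneous library was above each brown one by 0.89 or more. It was 2.38-fold higher in subcutaneous fat (-1.25 ± 0.18 SE, limma adjusted p = 0.0013), or -0.79 relative to the median of all tested miRNAs. With the GC trend removed it did not pass the test (-0.46, limma adjusted p = 0.056).

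MiR-16-5p is also abundant in red cells, whose miRNAs moved in both directions between the tissues in the deposited values. Of the 3 red cell miRNAs listed, miR-144-3p was at the floor in all libraries. MiR-451a was lower in brown fat (8.74 ± 0.50 SD against 10.22 ± 0.36) and miR-486-5p was higher there (17.68 in every brown library against 14.73 ± 0.51 SD). With the GC trend removed miR-451a turned to 0.49 (limma adjusted p = 0.14), and miR-486-5p had no value in that setting. The summed linear level of the 3 red cell miRNAs above the floor ran from 209716 to 210003 in brown and from 19492 to 36269 in subcutaneous libraries, nearly all of it miR-486-5p. The part of red cells in the miR-16-5p difference was not tested.

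MiR-15b-5p, beside Mir16-2 in Smc4, held 9.93, 10.02 and 10.02 in BF-EPA 3, 4 and 5 and 11.10, 10.74 and 10.87 in SUB-EPA 1, 3 and 8. Its brown values were within 0.1 of each other and its tissues were 0.72 apart. It was 1.88-fold higher in subcutaneous fat (-0.91 ± 0.17 SE, limma adjusted p = 0.0033). Relative to the median of all tested miRNAs the difference was -0.46. After median-of-ratios scaling it was -0.49 (limma adjusted p = 0.043), and with the GC trend removed it turned to 0.47.

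MiR-15a-5p, beside Mir16-1 in Dleu2 at a locus whose human counterpart is lost in many chronic lymphocytic leukaemias, stood at 8.16, 7.00 and 8.11 in brown fat and at 8.56, 8.94 and 8.65 in subcutaneous fat. BF-EPA 4 was the low library. The difference of -0.96 ± 0.37 SE did not pass the test (limma adjusted p = 0.057), and without BF-EPA 4 it was -0.58 (limma adjusted p = 0.080). The 95% interval ran from -1.86 to -0.06, and the difference turned to 0.42 with the GC trend removed. BF-EPA 4 was also the only library with miR-322-3p at the floor and 1 of the 2 libraries high in miR-133a-3p. Without that pair of libraries the miR-15a-5p difference was -0.47 (limma adjusted p = 0.131).

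The miR-15 arms were set against miR-16-5p within each library. The log2 ratio of miR-15a-5p to miR-16-5p was -3.70 ± 0.72 (SD) for brown fat and -3.99 ± 0.27 for subcutaneous fat (exact permutation p = 0.6), and without BF-EPA 3 the sign of the shift turned (-0.0346). For miR-15b-5p the ratio was -1.47 ± 0.20 and -1.81 ± 0.28 (exact permutation p = 0.2). Both pairs overlapped between tissues in the deposited values. With the GC trend removed the shifts grew from 0.29 to 0.88 for miR-15a-5p and from 0.34 to 0.93 for miR-15b-5p. With standard errors of 0.44 and 0.20 on these differences, moderate shifts between the arms could not be seen.

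The arms of the other loci were also set against miR-16-5p. The log2 ratio of miR-195a-5p to miR-16-5p was -5.44, -4.76 and -5.42 in BF-EPA 3, 4 and 5 and -2.83, -3.00 and -2.87 in SUB-EPA 1, 3 and 8, a 4.95-fold shift. That of miR-322-5p to miR-16-5p was -2.85, -3.57 and -3.31 in brown and -2.06, -2.10 and -2.16 in subcutaneous fat, a 2.20-fold shift. In both the tissues were apart in every library (each exact permutation p = 0.1, the smallest possible, and 0.175 adjusted over 7 pairs). With the GC trend removed the shifts were -1.97 and -0.55 on the log2 scale, the second smaller in size than those of both miR-15 arms in that setting.

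The 6 arms with the AGCAGCA seed were also summed, on the deposited values. On the linear scale the sum was 4825, 5167 and 6042 units in BF-EPA 3, 4 and 5 and 15513, 15255 and 16922 units in SUB-EPA 1, 3 and 8. This was 0.221% ± 0.026 (SD, n = 3) of all values in the brown libraries and 0.658% ± 0.037 in the subcutaneous ones, a ratio of 2.97. No correction was made for how well each arm is captured in a library, or for the GC trend. With that trend removed miR-15a-5p and miR-15b-5p turned and miR-16-5p did not pass the test.

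The makeup of the sum was compared on the same deposited values, with no GC correction. The chromosome 14 and 3 arms (miR-15a-5p, miR-15b-5p and miR-16-5p) made up 76.6% ± 1.2 (SD) of it in brown fat and 57.1% ± 1.14 in subcutaneous fat. The chromosome 11 arms made up 17.7% ± 0.11 in brown and 33.1% ± 1.41 in subcutaneous fat, most of it miR-497-5p. MiR-322-5p made up 5.67% ± 1.09 and 9.83% ± 0.30. For each of these shares the libraries of one tissue did not overlap those of the other.

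**Figure D2:**
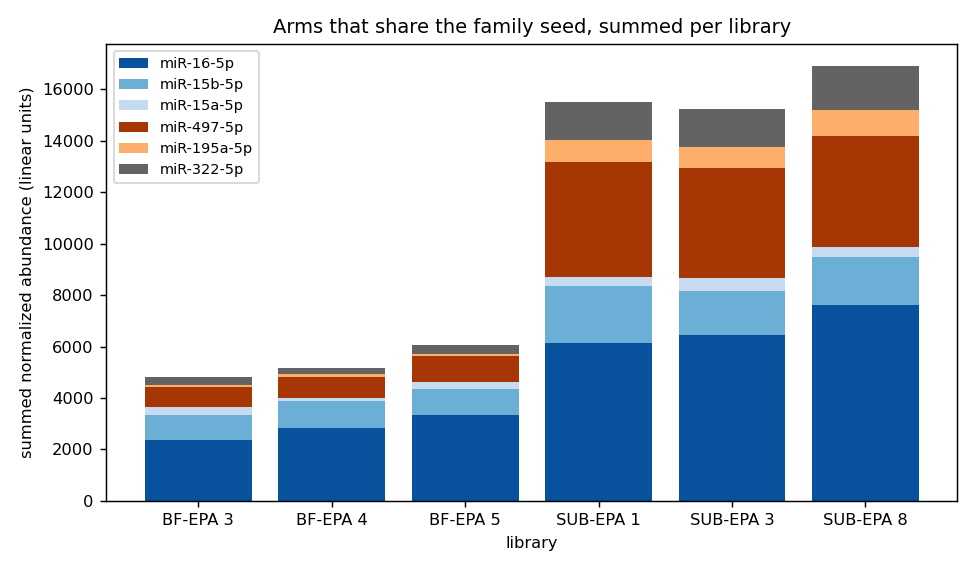
Linear normalized abundance (vertical axis, from 0) summed over the 6 arms that share the AGCAGCA seed, in each of the 6 libraries, with the arms stacked in colours. The 3 brown libraries lie between 4825 and 6042 units and the 3 subcutaneous ones between 15255 and 16922, and the miR-497-5p, miR-195a-5p and miR-322-5p blocks take a larger share in the latter.

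The order of the arms by level changed with the tissue. In brown fat it ran from miR-351-5p through miR-16-5p, miR-15b-5p, miR-497-5p, miR-322-5p, miR-15a-5p and miR-195a-5p down to miR-322-3p. The values of miR-15b-5p overlapped those of miR-497-5p, and those of miR-322-5p overlapped those of miR-15a-5p. In subcutaneous fat miR-16-5p and miR-497-5p came before miR-351-5p, and miR-195a-5p moved above miR-15a-5p, by 1.09 ± 0.34 (SD, n = 3). There only miR-15b-5p and miR-322-5p, next to each other in the order, overlapped.

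Passenger arms and cluster partners were mostly not detected above the floor. Of 20 such arms listed, 17 were in the table and 12 of these were at the floor in all 6 libraries, among them miR-15a-3p, miR-15b-3p, both miR-16 3p arms, miR-497-3p and miR-351-3p. MiR-503-5p, from the hairpin between Mir322 and Mir351, was at the floor throughout, and miR-503-3p rose above it in SUB-EPA 3 (4.53) and SUB-EPA 8 (6.16) alone. MiR-450a-5p was above the floor in SUB-EPA 1 (5.53) and SUB-EPA 3 (4.34), and miR-542-5p in BF-EPA 5 (5.76). These low values come without a test, since they did not reach the minimum level.

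Only 2 partner arms were tested, and neither passed on the deposited values. MiR-195a-3p stood at the floor, 6.01 and 6.83 in BF-EPA 3, 4 and 5 and at 6.85, 7.25 and 7.44 in SUB-EPA 1, 3 and 8 (-1.79 ± 0.90 SE, limma adjusted p = 0.116). MiR-542-3p, from the chromosome X cluster, stood at the floor, 6.28 and 6.68 in brown and at the floor in all 3 subcutaneous libraries (2.10 ± 0.96 SE, limma adjusted p = 0.090). It entered the test through its brown values alone, so its direction was set by its inclusion. With the GC trend removed miR-542-3p passed (4.67 ± 0.95 SE, limma adjusted p = 0.0053) and miR-195a-3p did not (-2.19 ± 0.89 SE, limma adjusted p = 0.067). The 4 other arms of the table that carry AGCAGCA (miR-195b, miR-6342, miR-6353 and miR-6419) were listed at the floor in all libraries, so miR-195b did not add to the seed's total.

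Over the tested miRNAs as a whole, the differences moved with base composition. Over the 231 tested miRNAs with a RefSeq sequence, the difference between tissues rose by 1.30 for each 10 percentage points of GC content. Pearson's r was 0.53 across miRNAs, which are not independent replicates. With each miRNA centred on its mean over the 6 libraries, the slope was 0.61 to 0.69 in each brown library and -0.79 to -0.47 in each subcutaneous one. Centring makes these slopes sum to 0, so their opposite signs restate the difference between tissues. They do not show how abundance itself runs with GC content in a library. The members run from 40.9% GC (miR-15a-5p, miR-15b-5p and miR-322-5p) through 42.9% (miR-195a-5p), 45.5% (miR-16-5p), 47.6% (miR-322-3p) and 50.0% (miR-497-5p) to 62.5% (miR-351-5p). MiR-351-5p, the only member higher in brown fat, was thus also the richest in GC. The differences of the other members did not rise steadily with GC content. At 40.9% they were -0.96 (miR-15a-5p), -0.91 (miR-15b-5p) and -2.39 (miR-322-5p), and at 50.0% -2.33 (miR-497-5p).

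**Figure D3:**
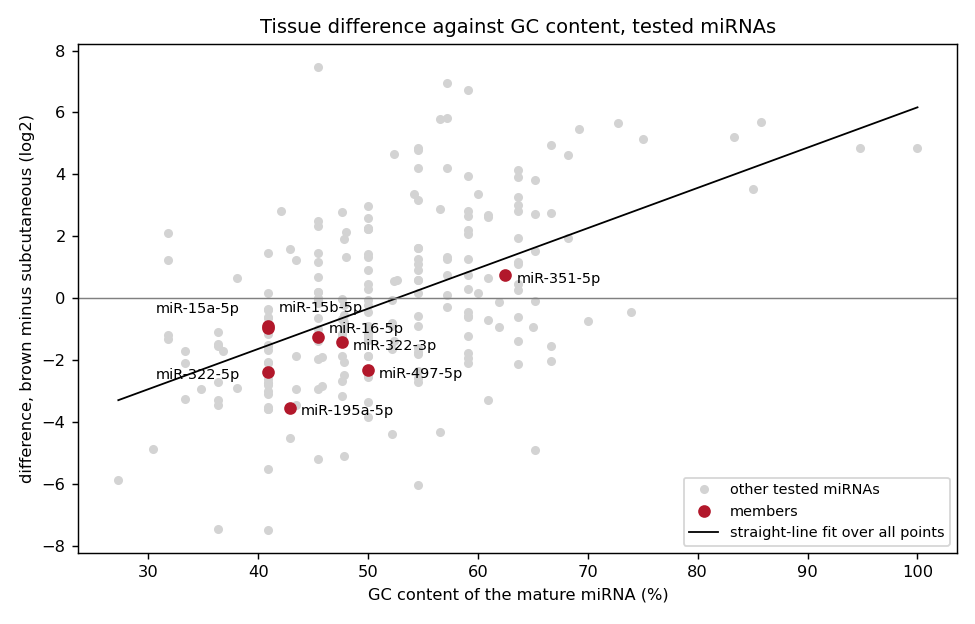
Difference between tissues (log2, brown minus subcutaneous, vertical axis) against GC content of the mature sequence (percent, horizontal axis) for the 231 tested miRNAs with a sequence; members are in red and the line is a straight-line fit. The line rises by 1.30 for each 10 percentage points, with the low-GC members below 0 and miR-351-5p, at 62.5% GC, above it.

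With each library's linear trend on GC removed, 3 of the members changed direction. This removal moves the difference of an arm by an amount set by its GC content alone. MiR-15a-5p, miR-15b-5p and miR-322-5p, all at 40.9% GC, thus moved by the same amount. MiR-351-5p turned to -0.69 ± 0.12 SE (limma adjusted p = 0.0025), lower in brown fat. MiR-15b-5p turned to 0.47 ± 0.14 SE (limma adjusted p = 0.025) and miR-15a-5p to 0.42 ± 0.38 SE (limma adjusted p = 0.351). MiR-16-5p fell short of the threshold at -0.46 ± 0.18 SE (limma adjusted p = 0.056). All SE and p-values given with the trend removed take the fitted line as exact. They leave out its error and the scatter of miRNAs about it. When only the 146 miRNAs above the floor in every library were used, an alternative chosen after seeing the data, miR-351-5p was at -0.46 (limma adjusted p = 0.022) and miR-16-5p at -0.72 (limma adjusted p = 0.011). MiR-15b-5p was then at 0.0807 (limma adjusted p = 0.692) and miR-15a-5p at 0.0318 (limma adjusted p = 0.940), near no difference.

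The chromosome 11 arms and miR-322-5p remained lower in brown fat in this setting. The difference of miR-497-5p was -2.14 ± 0.15 SE (limma adjusted p = 9.4e-05), that of miR-195a-5p -2.43 ± 0.31 SE (limma adjusted p = 0.00079) and that of miR-322-5p -1.01 ± 0.21 SE (limma adjusted p = 0.0055). The shift between miR-322-5p and miR-351-5p shrank from -3.12 to -0.31, and that between miR-195a-5p and miR-497-5p from -1.22 to -0.29. Both changes follow from the GC contents of the arms, so they do not test whether the arms of a pair shift alike. MiR-125a-5p and miR-125b-5p, at 50.0% GC, remained higher in brown fat (1.11 ± 0.17 SE and 0.65 ± 0.14 SE), while miR-351-5p was lower. The origin of the trend was not tested.

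**Figure D4:**
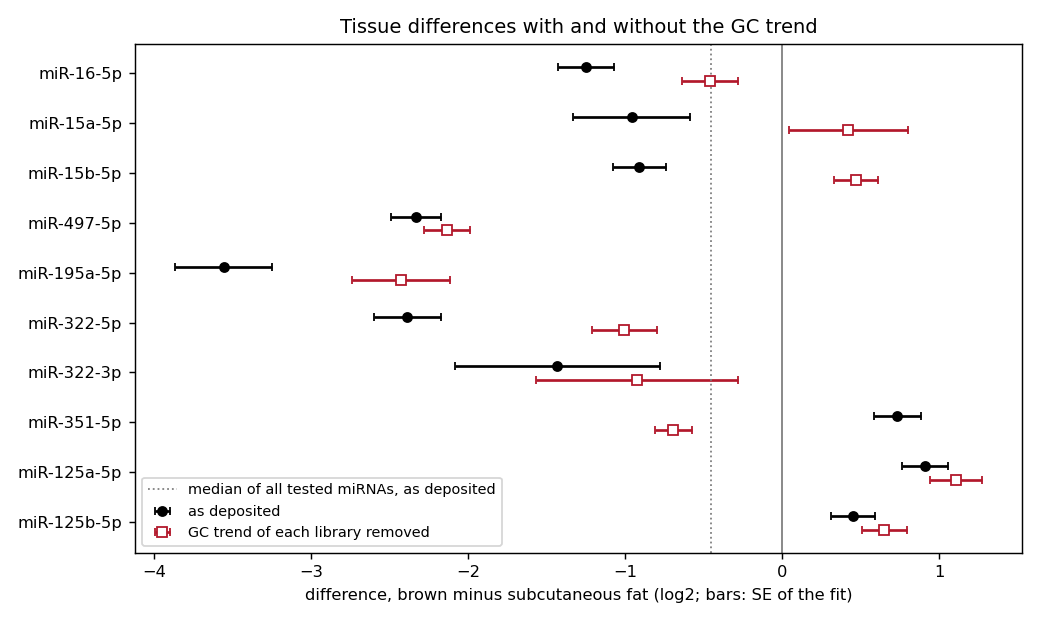
Differences between tissues (log2, brown minus subcutaneous, horizontal axis) of the 8 members and of miR-125a-5p and miR-125b-5p, as deposited (black) and with each library's GC trend removed (red); bars are SE of the fit and the dotted line is the median of all tested miRNAs as deposited, -0.45. MiR-497-5p, miR-195a-5p and miR-322-5p stay left of 0 in both, while miR-351-5p, miR-15a-5p and miR-15b-5p cross it.

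For each member, the miRNA outside the family with the most similar pattern was found by the root mean square difference of centred log2 values over the 6 libraries, among 261 tested miRNAs. MiR-16-5p was nearest to miR-23a-3p (0.093), miR-15b-5p to miR-342-3p (0.157), miR-15a-5p to miR-25-3p (0.326), miR-497-5p to miR-99b-3p (0.163) and miR-195a-5p to miR-146b-5p (0.263). MiR-351-5p was nearest to miR-574-3p (0.111) and miR-322-3p to miR-1843a-5p (0.244). With 6 libraries in 2 tissues, such likeness mainly describes the size of the difference between tissues.

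MiR-322-5p was nearest to miR-126-3p (0.213), an endothelial miRNA, whose mean was 10.92 ± 0.22 (SD) over the brown libraries and 12.96 ± 0.11 over the subcutaneous ones. Both endothelial arms of the table were lower in brown fat in the deposited values. Their summed linear level above the floor was 3224 to 3803 in brown and 9901 to 12592 in subcutaneous libraries. Neither endothelial arm had a value with the GC trend removed. Of the leukocyte miRNAs, miR-142-3p was at the floor throughout. In the deposited values miR-223-3p and miR-142-5p were lower and miR-150-5p higher in brown fat. MiR-223-3p entered the test only through its subcutaneous values, so its direction was set by its inclusion. With the GC trend removed miR-142-5p turned to 0.28 (limma adjusted p = 0.53), and miR-150-5p had no value in that setting. The leukocyte sums were 33362 to 45360 in brown and 14384 to 20093 in subcutaneous libraries, most of it miR-150-5p. The epithelial sums were 212 to 367 in brown and 299 to 38270 in subcutaneous libraries, the highest in SUB-EPA 1, and neither tested arm passed. The part of these cell types in the differences of the members was not tested. Of 3 tested muscle miRNAs, none passed (0 at an adjusted p under 0.05, and 0 at an unadjusted p under 0.05, by limma). Their SE were 2.16 (miR-133a-3p), 2.01 (miR-133b-3p) and 1.27 (miR-206-3p), so even large differences could not be seen. Without the 2 libraries high in miR-133a-3p the same count of members, 5 lower and 1 higher, was called. In that setting the difference was -3.87 for miR-195a-5p, -2.29 for miR-497-5p, -2.26 for miR-322-5p and 0.78 for miR-351-5p.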

How the data were processed

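Per the series' design text, the authors mapped reads to mouse build mm10, scaled counts of each unique read to total usable reads and added 40 counts. What aligner and miRNA annotation were used is not given in the sources. Values in the deposited table are on the log2 scale, as judged from its floor. That floor is 10 on the linear scale, so the 40 added counts do not show in it. Of its 100 highest ranks, 64.0% held 1 value in all 6 libraries (within 1e-06). The design text gives only an average number of mapped reads, so the depth of each library is unknown and no counting interval is given.

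Tissues were compared on the log2 values with limma 3.58.1 (R 4.3.3), moderated along a mean-variance trend, and p-values were adjusted by Benjamini-Hochberg over 269 miRNAs. A miRNA was tested if its mean linear value, less the floor, reached 24.05 units. All 8 members passed, miR-322-3p through its subcutaneous values alone. Folds are 2 to the power of the log2 difference and understate changes near the floor. Pairs of arms were compared by exact two-sided permutation of within-library log2 ratios. The fit was tested on simulated data with independent noise and fewer changed miRNAs than were called here. That test does not show how the fit behaves on values like these.

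The rule for named miRNAs was all members, tested locus partners and seed sharers, 1 nearest miRNA for each member, and markers. Members and lists were chosen with earlier results of these data known. Whether the libraries are from separate mice, or brown and subcutaneous samples from shared mice, is not in the labels. The p-values treat the libraries as independent, which could not be checked, and rest only on the spread between these samples. Mature sequences came from RefSeq (GRCm38.p6) and loci from GENCODE M21. Python 3.11.15 with scipy 1.17.1 was used for permutation tests.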

Additional observations from a re-analysis of the deposited data

How the results depend on the processing

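MiR-195a-5p, miR-497-5p and miR-322-5p kept their direction and their call under all 17 alternatives, which were other pseudocounts, filters, a rescaling, other variance models, removal of GC trends and omission of libraries; 2 of the 17 were added after seeing the data. Their differences ran from -3.87 to -2.43, -2.43 to -1.92 and -2.48 to -1.01. Leaving out single libraries changed no member's call.

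Removing the GC trend turned miR-15a-5p (0.42), miR-15b-5p (0.47) and miR-351-5p (-0.69) and left miR-16-5p (-0.46) short of the threshold. The same removal over only the 146 miRNAs above the floor in every library, added after seeing the data, gave 0.0318, 0.0807 and -0.46 for the first 3, and called 98 of the 146 (36 higher, 62 lower in brown fat), with fewer miRNAs tested. MiR-15a-5p passed the threshold with 40 added (-0.83), with the stricter filter (-0.96) and with robust moderation (-0.96). The ratio of miR-15a-5p to miR-16-5p (0.29) ran, when single libraries were left out, from -0.0346 without BF-EPA 3 to 0.67, and was 0.88 with the GC trend removed, and that of miR-322-5p to miR-322-3p turned to 0.15 with the floor subtracted and 1 added. Under GC removal each arm moved by an amount set by its GC content alone. The origin of that trend and the cause of the other changes were not tested. The 10 times stricter filter and the second GC setting left miR-322-3p untested. No paired analysis was possible because the groups share 1 replicate number, 3. The unknown depth limits what can be said of arms at the floor.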
